A study of Mus musculus with 3 samples.

Results

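The genes described here are 44 genes of the G2 phase and of mitosis (G2/M), a list taken as given and matched by symbol to the 27998 genes of the deposited tables, where all 44 were found. They were followed in bone marrow cells of the mouse along 2 axes of neutrophil maturation, the falling level of Mpo and the rising summed level of Retnlg and Mmp8, to find where along these axes the transcripts of division fade. Mpo, myeloperoxidase, belongs to the azurophil granules that promyelocytes make, whereas Mmp8, the neutrophil collagenase, and Retnlg mark later neutrophils.

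The cells were CD133+ cells sorted from bone marrow of C57BL/6 mice by flow cytometry and sequenced with the 10x Chromium Single Cell 3′ v2 kit. The 3 libraries carry the labels Young (3 months), Ctrl (3 months) and Old (27 months in its sample label, 18.5 months in the series text), and each pools 3 mice. They are called young, control and old here. No treatment or transgene is named for any of them. With 1 library per group there is no replicate check and no test between groups, and every interval below is an exact 95% interval that covers counting error only, not differences between mice. The study calls these cells endothelial-like from lipoprotein and lectin uptake, tube formation, pseudo-time and blood flow recovery. After transfer of labelled CD133+ cells, the study also reports donor-derived endothelial cells in muscle and heart. It reports little CD31 and VE-cadherin in its CD133-marked cluster, and high VEGFR2, the product of Kdr, in the CD133+ cells. Levels here are over the analysed cells, after cells with markers of other cell types, endothelial among them, were set aside. Of the cells within the limits given below, the endothelial markers set aside 1 in young, 0 in control and 0 in old. In the analysed cells Cdh5, Kdr, Tek and Emcn each stood at or below 0.102 UMIs per 1000000 (CPM). Pecam1, which encodes CD31, stood at 1.73 (young), 1.39 (control) and 3.00 CPM (old). The 7 endothelial markers together stood at 8.58, 7.87 and 8.90 CPM, most of it Egfl7. Prom1, which encodes CD133, stood at 47.0, 53.0 and 45.8 CPM. The promyelocyte genes, most of them of azurophil granules, summed to 152, 145 and 104 UMIs per 10000. The specific granule genes summed to 1319, 1323 and 1159 UMIs per 10000, so the cells are described here by these neutrophil genes.

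The matrices held 8362, 10869 and 10597 cells with a median of 9719.5, 9560.0 and 13039.0 UMIs, and no barcode was shared between libraries. After the limits on genes, mitochondrial reads and UMIs, cells with markers of other cell types were set aside, 10.7% in young, 1.13% in control and 0.889% in old. The marker lists cover endothelial and mesenchymal cells beside blood cells, and the cells set aside are called other blood cells below for short. The analysed cells numbered 6662, 9709 and 9477. They carried 295642, 406281 and 481385 UMIs of the 44 genes, and each of the 44 was found in every library.

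In a dividing cell, cyclin A and B bound to Cdk1 start mitosis, Aurora and Polo kinases and the kinetochore arrange the chromosomes on the spindle, and the anaphase-promoting complex with its partner Cdc20 ends it by marking cyclin B and securin for destruction. Transcripts of most of these genes rise in G2 and fall after division, so many of them together at a high level mark cells near division. The presence of a few of them does not. In the neutrophil lineage promyelocytes and myelocytes divide, while metamyelocytes, band cells and segmented neutrophils no longer do.

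Along maturation the members first rose and then fell. A cell's Mpo and Retnlg+Mmp8 are given per 10000 UMIs of that cell, and a band's level of a gene is its UMIs per 10000 UMIs of all cells in the band. The bands first laid out placed Mpo only among cells with Retnlg+Mmp8 below 2. In the old library this kept 4.73% of the cells, in control 52.9% and in young 14.1%, and even cells with Mpo of 20 or more and Retnlg+Mmp8 below 10 had a median Retnlg+Mmp8 of 3.27 in young, 1.28 in control and 3.74 in old. The bands of Mpo used below therefore take all cells with Retnlg+Mmp8 below 10, a choice made after seeing the data, and because of this unequal floor the same band need not hold the same stage in each library. Cells with Mpo of 50 or more are called Mpo-high, and cells with Mpo below 10 and Retnlg+Mmp8 below 5 are called Mpo-low.

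In the young library the 44 genes summed to 35.7 UMIs per 10000 (35.4 to 36.0) in Mpo-high cells, 44.2 at Mpo of 20 to 50, 42.8 at Mpo of 10 to 20 and 50.4 (50.1 to 50.7) in Mpo-low cells. From there the sum was 46.7 at Retnlg+Mmp8 of 5 to 10, 30.5 at 10 to 20, 24.4 at 20 to 50, 27.6 at 50 to 100 and 13.1 (12.4 to 13.8) at 100 or more. In control the same bands held 29.3, 37.3, 42.2, 47.1, 35.9, 18.1, 20.7, 26.5 and 14.3 UMIs per 10000. In old they held 34.7, 44.1, 44.7, 50.9, 48.95, 33.55, 18.0, 11.9 and 10.05 UMIs per 10000. Each library thus had its highest level in Mpo-low cells and its lowest in cells with Retnlg+Mmp8 of 100 or more, and the counting intervals of these bands lay far apart. In young and control the level at 50 to 100 was above that at 20 to 50, whereas old fell at every step after the Mpo-low band. Cells with more UMIs weigh more in such a level, and its interval leaves out the spread between cells. The band of 50 to 100 held only 121 young and 81 control cells.

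The S phase genes took another course. Their sum of 40 genes, which hold the Mcm helicase and the enzymes of nucleotide supply and replication, was 38.5 (young), 37.9 (control) and 40.1 UMIs per 10000 (old) in Mpo-high cells, then 24.05, 23.1 and 26.65 in Mpo-low cells and 8.98, 8.59 and 5.96 at Retnlg+Mmp8 of 100 or more. The ratio of the summed G2/M members to the summed S phase genes was 0.927, 0.773 and 0.865 in Mpo-high cells and 2.095, 2.04 and 1.91 in Mpo-low cells. It was 2.101, 2.28 and 2.19 at Retnlg+Mmp8 of 5 to 10. The S phase genes were therefore already lower where the G2/M genes stood highest. In Mpo-low cells 28, 30 and 25 of 39 measured S phase genes were at least 1.5 times lower than in Mpo-high cells. Of all genes, 3171 of 6310, 3136 of 6135 and 2797 of 6000 were that much lower. The median log2 ratio was -0.92, -0.95 and -0.75 for the S phase genes and -0.59, -0.61 and -0.53 for all genes. Much of this fall was thus shared by other genes. Mcm2, a helicase subunit, went from 1.06, 1.10 and 0.919 UMIs per 10000 in Mpo-high to 0.4135, 0.376 and 0.402 in Mpo-low cells, while Rrm2, the ribonucleotide reductase subunit, differed little (3.57, 3.58 and 5.27 against 3.51, 3.61 and 5.07).

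**Figure D1:**
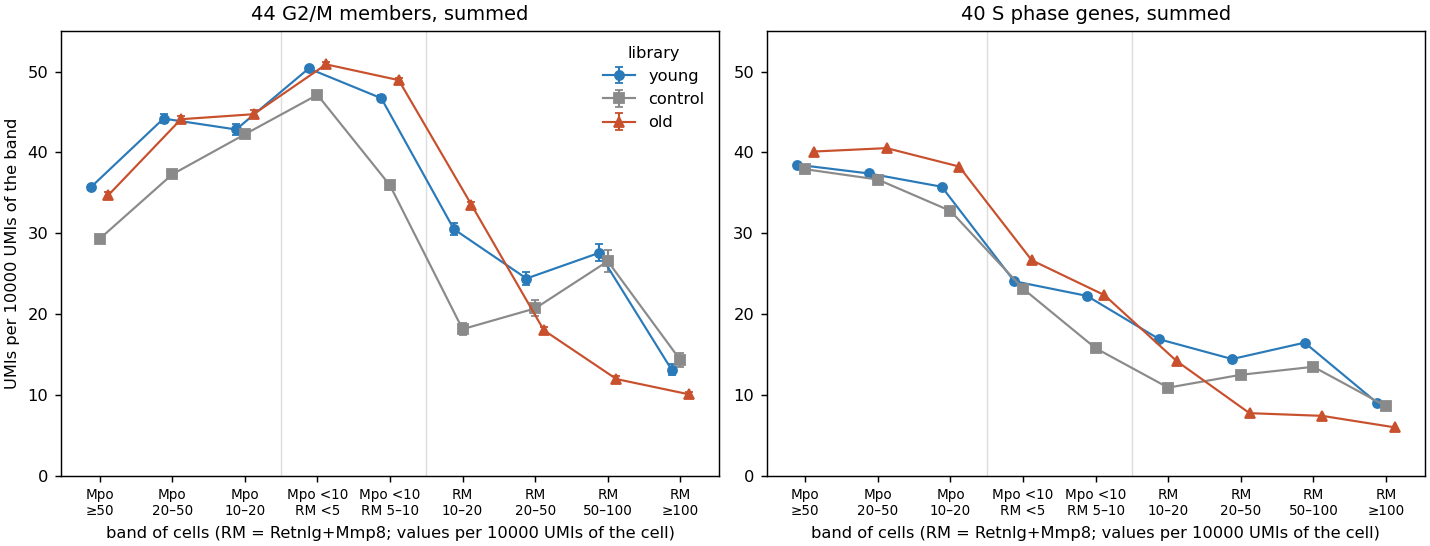
Left, summed level of the 44 G2/M members and right, summed level of 40 S phase genes, in UMIs per 10000 UMIs of the band (y axis), across 9 bands of cells ordered from high Mpo to high Retnlg+Mmp8 (RM, x axis), with a line for each library and exact 95% Poisson intervals on the left. The members stand highest in the Mpo-low band (47.1 to 50.9) and lowest at RM of 100 or more (10.05 to 14.3), whereas the S phase genes stand highest at Mpo of 20 or more.

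Depth fell along the same axis: the median UMI count per cell in young was 12246.0 in Mpo-high cells, 10497.0 in Mpo-low cells and 4357.5 at Retnlg+Mmp8 of 100 or more, in control 13108.5, 9504.0 and 4468.5, and in old 14933.0, 13444.5 and 6238.0. For a share of cells at equal depth every cell was therefore thinned at random to 3000 UMIs, at which depth 1 UMI is worth 3.33 per 10000. With the count first laid out, 3 or more different members with a UMI, 85.7% (84.8 to 86.5) of young, 87.4% (86.8 to 88.1) of control and 82.8% (82.0 to 83.6) of old cells were counted. That share stood at 94.5%, 95.7% and 97.7% in Mpo-high cells and at 88.7%, 88.4% and 92.9% in Mpo-low cells. It was still 46.2%, 50% and 45.5% at Retnlg+Mmp8 of 100 or more. It first went under 50% of its highest value at Retnlg+Mmp8 of 100 or more in young, 10 to 20 in control and 50 to 100 in old, and under 10% nowhere. A second random draw of the thinning left no band under 50% in young or control, so this limit is not a stable place there.

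The most mature cells were set beside genes that they are known to have ceased to express. These were 5 promyelocyte genes: Mpo, Elane, Prtn3 and Ctsg of the azurophil granules, and Ms4a3, which is not a granule protein gene. At Retnlg+Mmp8 of 100 or more they were found at 19.0 to 26.3% of their library mean in young. In control they were at 23.35 to 39.3% and in old at 17.2 to 25.1%. Ms4a3 set the top of the range in young and old. The summed G2/M members were at 29.9%, 34.5% and 24.2% of theirs. Of the 44 members, 13 in young, 21 in control and 23 in old lay within the range of those 5 promyelocyte genes and 23, 9 and 10 above it. The part of free RNA in the member UMIs of these cells was not tested. A share of cells with 3 members was not read as a share of dividing cells in these bands, and a count of 8 or more different members, chosen after seeing these values, was used beside it.

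With 8 or more members the share was 41.1% (38.3 to 43.99) of Mpo-high, 58.45% at Mpo of 20 to 50, 52.8% at 10 to 20 and 62.85% (60.9 to 64.7) of Mpo-low cells in young. It was 57.65% at Retnlg+Mmp8 of 5 to 10, 30.2% at 10 to 20, 18.7% at 20 to 50, 21.5% at 50 to 100 and 5.19% (2.62 to 9.09) at 100 or more. In control the shares were 31.4%, 51.6%, 56.97%, 59.55%, 42.3%, 13.7%, 12.4%, 18.5% and 7.97% (4.05 to 13.8) in the same order. In old they were 45.5%, 64.1%, 62.8%, 67.4%, 63.2%, 37.4%, 13.3%, 3.785% and 1.77% (0.946 to 3.01). The higher shares at 50 to 100 than at 20 to 50 in young (14.5 to 29.9 against 13.3 to 25.1) and control (10.75 to 28.7 against 7.11 to 19.6) had overlapping intervals. Over all analysed cells the 3 libraries were highest in Mpo-low cells. The share was first under 50% of that maximum at Retnlg+Mmp8 of 10 to 20 in young, at 48.0% of it (38.55 to 59.2), and in control, at 22.9% (14.8 to 33.9), and at 20 to 50 in old, at 19.7% (15.6 to 24.65). It went under 10% of the maximum at 100 or more in young (8.26%), at 50 to 100 in old (5.615%) and in no band of control. The young interval at 10 to 20 includes 50%. The band of this limit also depended on the bands and cells taken. With the bands first laid out it was 20 to 50 in young (31.1% of the maximum) and 10 to 20 in old, at 49.2% (35.3 to 70.6) of a maximum of 76% in the 50 cells with Mpo below 2 and Retnlg+Mmp8 below 2. In cells under the median UMI count it was again 20 to 50 in young and 10 to 20 in old, and it was 10 to 20 in control under each of these choices. Which of young and old reached the limit earlier is therefore not set by these data.

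**Figure D2:**
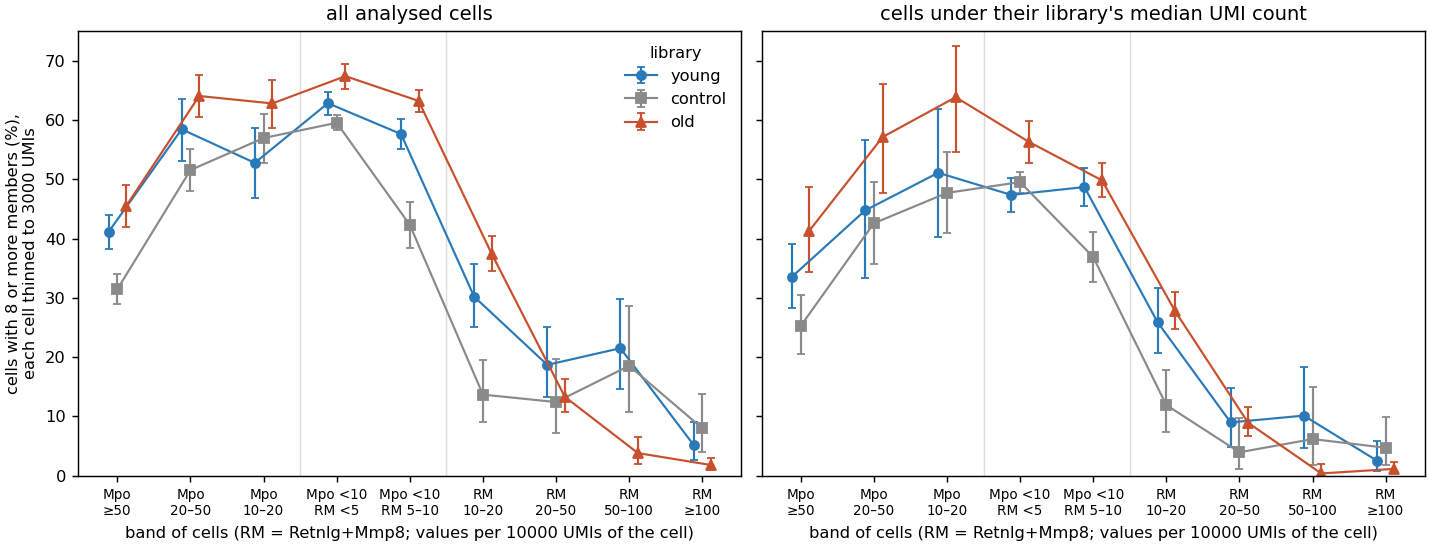
Percent of cells with 8 or more different G2/M members after thinning to 3000 UMIs (y axis) across the same 9 bands (x axis), left for all analysed cells and right for cells under the median UMI count of their library, with exact 95% binomial intervals. On the left the share is 59.55 to 67.4% in the Mpo-low band and 1.77 to 7.97% at RM of 100 or more, and on the right every band from RM of 20 onward lies at or below 10.1%.

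The cells on either side of the count of 8 are described by their member UMIs, which the count itself holds at 8 or more on the upper side. In old, cells with 8 or more members held a mean of 19.3 member UMIs of 3000 in the Mpo-low band, 19.0 at Retnlg+Mmp8 of 10 to 20 and 19.52 at 20 to 50, and cells with fewer held 5.285, 3.63 and 2.75. Control cells over that count held 18.9, 18.1 and 17.0 in the same bands, and young cells held 19.4, 19.0 and 16.15, while those under it held 4.81, 2.715 and 2.915 in control and 4.765, 3.37 and 2.845 in young. Mpo-high cells lay lower over the count and higher under it than each of these bands, with 16.1 in young, 13.2 in control and 14.3 in old over that count and 6.48, 6.56 and 6.99 under it. Cells with few members were scarce at high Mpo: 5.20%, 3.865% and 1.65% of cells with Mpo of 20 or more and Retnlg+Mmp8 below 10 had 0 to 2 members, against 12.8%, 13.1% and 9.11% of cells with both below 10. At the upper end, 12 or more members were found in 17.4%, 9.002% and 19.0% of the former and in 37.2%, 33.4% and 40.8% of the latter. The former thus had a narrower distribution of members than the latter.

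**Figure D3:**
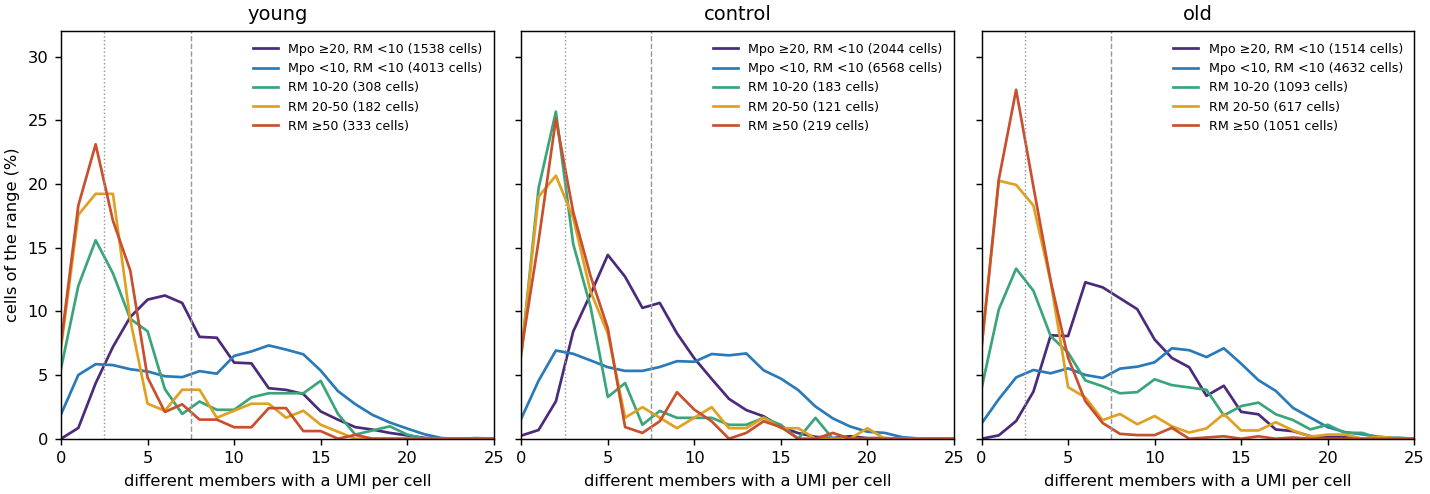
Distribution of the number of different G2/M members with a UMI per cell after thinning to 3000 UMIs (x axis) as percent of cells of each range (y axis), 1 panel per library and 1 line per range of Mpo and RM (Retnlg+Mmp8), with dotted and dashed lines at the counts of 3 and 8. Cells with Mpo of 20 or more peak at 5 to 6 members, cells with Mpo and RM below 10 spread from 0 to over 15, and cells with RM of 50 or more peak at 2.

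The late cells that carried 8 or more members had more UMIs than their neighbours. At Retnlg+Mmp8 of 50 or more these were 37 young, 26 control and 25 old cells, with a median of 11218.0, 10522.5 and 14819.0 UMIs, against 4440.0, 4474.0 and 6813.0 UMIs for the cells under that count. Of them 62.2%, 61.5% and 64.0% lay above the median UMI count of their library, against 7.43%, 5.18% and 3.801% of the others. The promyelocyte genes summed to a median of 20.35, 31.98 and 27.75 UMIs per 10000 in them and 19.6, 24.3 and 18.9 in the others. A sum of 100 UMIs per 10000 or more was found in 2 of 37, 4 of 26 and 4 of 25 of them. Of the others it was found in 12 of 296, 6 of 193 and 5 of 1026. Restricting every band to cells under the library's median UMI count gave 8.97% (4.86 to 14.8), 3.92% (1.08 to 9.74) and 8.89% (6.63 to 11.6) with 8 or more members at Retnlg+Mmp8 of 20 to 50. At 50 to 100 it gave 10.1%, 6.15% and 0.352%, and at 100 or more 2.51%, 4.69% and 1.12%, against 47.4%, 49.5% and 56.3% of Mpo-low cells. Among these shallower cells the highest band was Mpo of 10 to 20 in young (51.1%, 40.35 to 61.8) and in old (63.9%, 54.55 to 72.5), with intervals that overlap those of Mpo-low cells, and the Mpo-low band in control. No doublet caller was run, and the part that droplets with 2 cells have in these values was not tested. In Mpo-low cells, too, the share was higher above the median UMI count (76.6%, 70.8% and 74.4%).

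Set against the Mpo-low cells, nearly all members were lower in cells with Retnlg+Mmp8 of 50 or more. Of the genes that reached 10 CPM in one of the groups of cells compared, a level at least 1.5 times lower was found for 42 of 42 measured members in young, where 23.4% of all 5501 genes were that much lower, for 42 of 43 in control, against 26.1% of all 5376 genes, and for 42 of 43 in old, against 42.2% of all 5253 genes. The median log2 ratio of the members was -1.52 in young, -1.38 in control and -2.42 in old, and that of all genes -0.17, -0.21 and -0.41. The counting interval lay below 0 for 43 of the 44 members in each library, a count given without the same count over all genes. Of the 52 other G2/M genes, 45, 44 and 45 were measured and 41, 39 and 43 of these were at least 1.5 times lower, with a median of -1.30, -1.36 and -2.30. The S phase genes had a median of -0.95, -1.17 and -2.16 from the same start, where they were already low.

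Going from Mpo-high to Mpo-low cells, a level at least 1.5 times higher was found for 25 of 42 measured members in young (7.15% of all 6310 genes), for 34 of 42 in control (10.5% of 6135) and for 25 of 43 in old (8.72% of 6000). The median log2 ratio of the members was 0.63, 0.92 and 0.72, and that of all genes -0.59, -0.61 and -0.53. Of the other G2/M genes 16 of 46, 27 of 44 and 21 of 46 were that much higher, and of the S phase genes 0 of 39 in each library. Both comparisons use the same Mpo-low cells, so they are not independent of each other. In 32 (young), 32 (control) and 31 (old) of the 44 members the highest of the 9 bands was the Mpo-low band. The share of all genes with that highest band is not given here, so this count only describes the members.

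**Figure D4:**
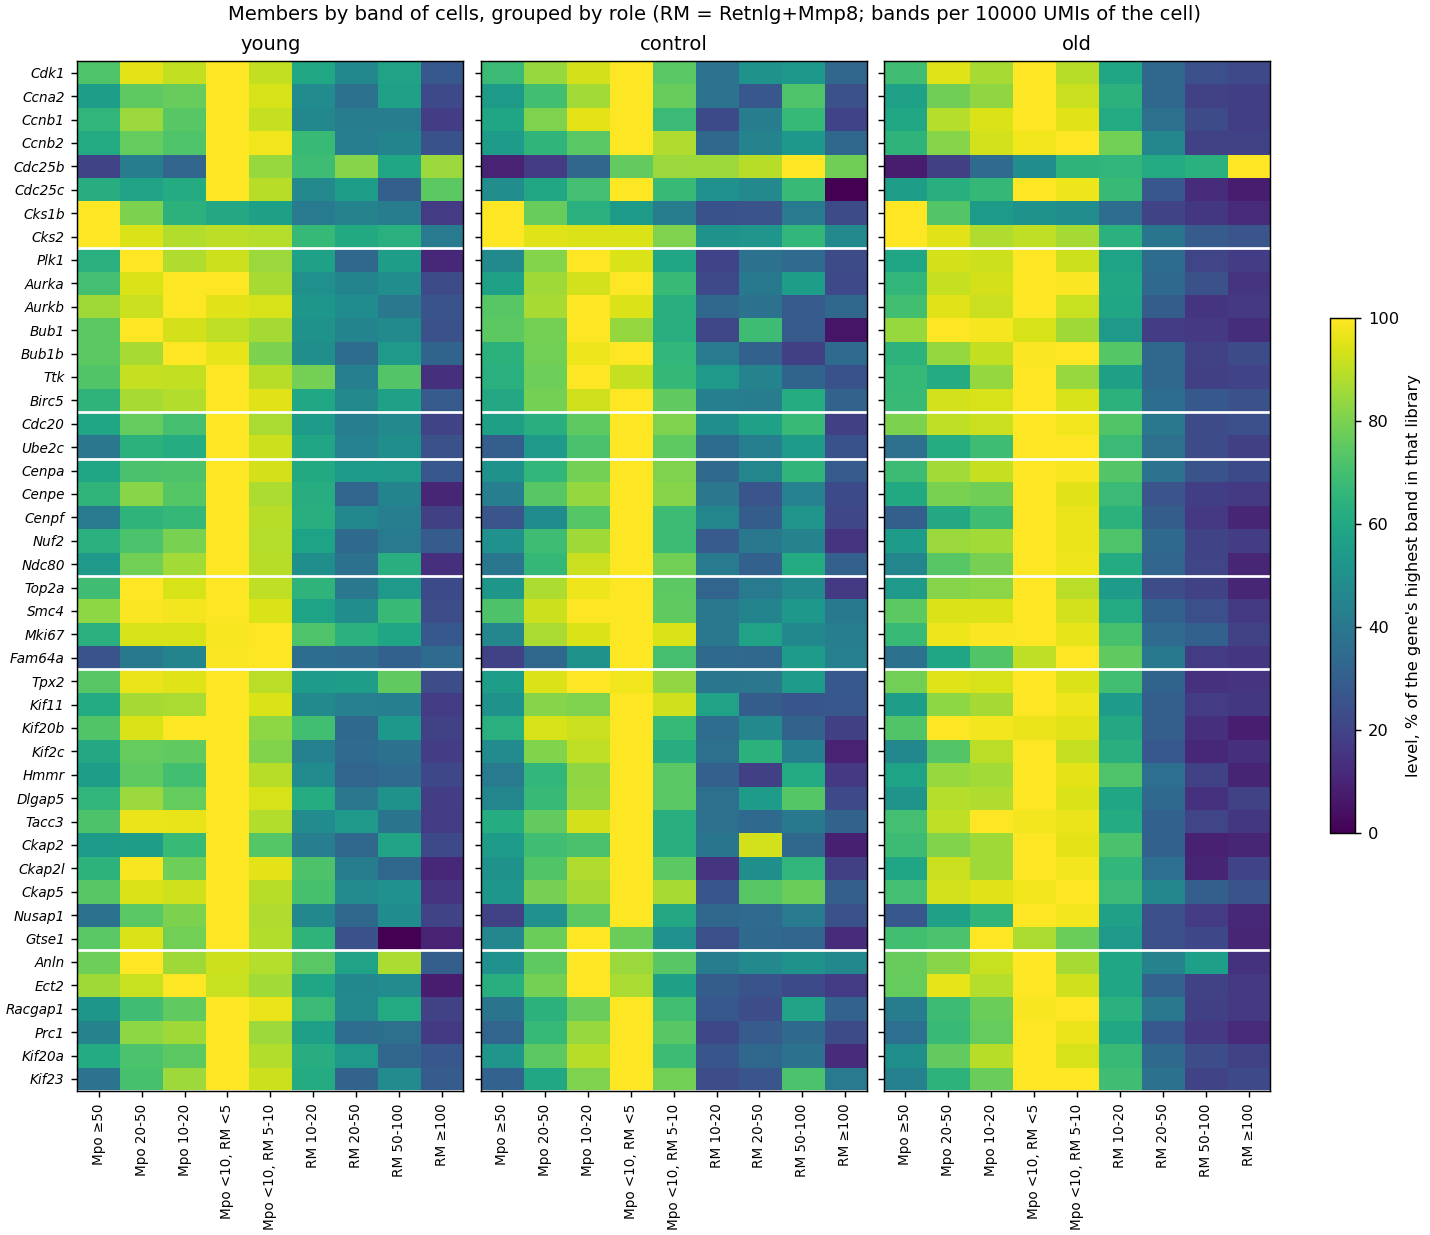
Level of each of the 44 members (rows, in their order of roles from mitotic entry at the top to cytokinesis at the bottom, separated by white lines) in the 9 bands (columns), as percent of the gene's highest band in that library (colour scale 0 to 100), 1 panel per library. Most rows are brightest in the Mpo-low column and darken to the right, except Cks1b and Cks2, which are brightest at Mpo of 50 or more, and Cdc25b, which stays bright on the right.

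Among the genes of mitotic entry, Cks2 and Cks1b were the most abundant. Both encode small subunits that bind cyclin-dependent kinases, and both stood highest in Mpo-high cells in all 3 libraries. Cks1b (chr3:89415472-89418383, GRCm38) held 3.86, 4.275 and 3.81 UMIs per 10000 in Mpo-high, 2.33, 2.34 and 1.96 in Mpo-low and 1.11, 1.33 and 0.526 at Retnlg+Mmp8 of 50 or more. Cks2 (chr13:51645232-51650660) held 5.76, 4.82 and 5.20, then 5.18, 4.535 and 4.70, then 2.94, 2.67 and 1.42. Its level in cells with Retnlg+Mmp8 of 20 or more was 55.2%, 53.9% and 31.1% of its highest band as first laid out, the second highest such value by the median over libraries after Cdc25b. Cdk1, the kinase that drives entry into mitosis, went from 1.64, 1.325 and 1.47 in Mpo-high to 2.27, 1.95 and 2.12 in Mpo-low cells and 0.933, 0.817 and 0.486 at 50 or more. The B cyclins Ccnb1 (1.22, 1.12 and 1.66 in Mpo-low cells) and Ccnb2 (1.67, 1.41 and 1.98) followed Cdk1 down to 0.3535, 0.456 and 0.337 and to 0.570, 0.597 and 0.3925.

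Cdc25b was the exception to the fall. It encodes one of the phosphatases that activate Cdk1 and lies at chr2:131186949-131198497, where it overlaps Spef1 on the opposite strand, so that reads of the pair cannot be told apart unless strand was used in counting. In young its level was 0.0150 (0.00928 to 0.0229) in Mpo-high, 0.0737 (0.0638 to 0.0848) in Mpo-low and 0.0626 UMIs per 10000 (0.0252 to 0.129) at Retnlg+Mmp8 of 100 or more, from 21, 197 and 7 UMIs. Control had 0.0124, 0.0949 and 0.0981 (0.0394 to 0.202), from 20, 551 and 7 UMIs. Old had 0.0193 (0.0121 to 0.0292), 0.127 (0.114 to 0.1415) and 0.259 (0.216 to 0.309), from 22, 338 and 127 UMIs. The log2 ratio of cells with Retnlg+Mmp8 of 50 or more over Mpo-low cells was -0.45 (-1.48 to 0.42) in young, 0.21 (-0.67 to 0.97) in control and 0.82 (0.55 to 1.09) in old. Only the old interval lies clear of 0, and the young and control values rest on few UMIs. Cdc25c, the other phosphatase of this kind in the list, was at -0.87, -1.75 and -3.39 in the same comparison.

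The mitotic kinases, passenger and checkpoint proteins were led by Birc5, survivin, a subunit of the chromosomal passenger complex, with 4.31, 4.045 and 4.40 UMIs per 10000 in Mpo-low cells and 1.78, 1.82 and 1.13 at Retnlg+Mmp8 of 50 or more. Aurka, the Aurora kinase of the spindle poles, held 0.8835, 0.8925 and 1.05, then 0.309, 0.330 and 0.1975. As a group these 7 genes summed to 5.035, 4.21 and 5.19 in Mpo-high, 7.23, 6.81 and 7.71 in Mpo-low and 2.84, 2.70 and 1.74 at 50 or more. Plk1, Aurkb and Bub1, a kinase of entry, the passenger kinase and a checkpoint kinase, had their highest band at Mpo of 10 to 50 in young and control. The counting intervals of these bands overlapped those of Mpo-low cells, so an earlier peak is not set by these values. In old, Plk1 (0.861) and Aurkb (0.706) stood highest in Mpo-low cells and Bub1 at Mpo of 20 to 50, with an interval that also overlapped.

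The partners of the anaphase-promoting complex rose in sum from Mpo-high to Mpo-low cells, from 3.09, 2.47 and 3.09 to 6.96, 6.77 and 6.45 UMIs per 10000. Ube2c, its ubiquitin-conjugating enzyme, held 2.08, 1.59 and 1.79 UMIs per 10000 in Mpo-high, 5.23, 5.22 and 4.83 in Mpo-low and 1.885, 2.003 and 0.9915 at Retnlg+Mmp8 of 50 or more. Cdc20, its activator, went from 1.015, 0.883 and 1.30 to 1.73, 1.56 and 1.62 and then 0.565, 0.6285 and 0.386. The pair made up 8.66%, 8.43% and 8.91% of all member UMIs in Mpo-high and 13.8%, 14.4% and 12.7% in Mpo-low cells, while the genes of mitotic entry went from 38.5%, 42.5% and 39.0% to 27.6%, 26.65% and 27.1%. Ube2c overlaps Tnnc2 and Cdc20 overlaps Elovl1 on the opposite strand. The sum of the 8 genes of mitotic entry itself was nearly level between these bands (13.76, 12.47 and 13.54 against 13.9, 12.56 and 13.82), in which Cks1b and Cks2 take a large share.

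Of the kinetochore and centromere genes, Cenpa, the histone H3 variant of the centromere, held 2.45, 2.40 and 2.86 UMIs per 10000 in Mpo-low and 0.962, 1.08 and 0.679 at Retnlg+Mmp8 of 50 or more. Cenpf, a large kinetochore protein of G2, rose from 0.407, 0.246 and 0.298 in Mpo-high to 0.988, 0.929 and 0.982 in Mpo-low cells and stood at 0.295, 0.322 and 0.126 at 50 or more. Among the chromosome structure genes, Top2a, the topoisomerase that untangles sister chromatids, went from 3.015, 2.88 and 2.69 in Mpo-low to 1.105, 0.880 and 0.373, and Smc4, a condensin subunit, from 2.60, 2.45 and 2.29 to 1.13, 1.13 and 0.453. Mki67, the proliferation antigen Ki-67, was at 1.23, 1.34 and 1.16 and then 0.5155, 0.597 and 0.276. All of these ended in old below the other libraries.

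The spindle genes were led by Nusap1, which binds microtubules at the chromosomes and overlaps Oip5 on the opposite strand. It held 0.719, 0.360 and 0.653 UMIs per 10000 in Mpo-high, 1.93, 1.81 and 2.42 in Mpo-low and 0.638, 0.581 and 0.331 at Retnlg+Mmp8 of 50 or more. Tacc3, a spindle protein that acts with Ckap5 and overlaps Tmem129 on the opposite strand, held 0.795, 0.627 and 0.874, then 1.11, 1.015 and 1.22, then 0.2995, 0.361 and 0.223. By the median over libraries, the members that kept least of their highest band were Gtse1, which acts on microtubules and p53, Ect2, which activates RhoA in cytokinesis, and Ckap2l. Their level in cells with Retnlg+Mmp8 of 20 or more was 10.5%, 22.3% and 17.5% (Gtse1), 31.7%, 22.5% and 20.1% (Ect2) and 24.5%, 38.8% and 20.2% (Ckap2l) of their highest band as first laid out. Within single libraries the order differed: Bub1 kept least in old (12.2%), and Ckap2l in control lay above the median of all members. Gtse1 is scarce, with 1 UMI at 100 or more in young, 1 in control and 5 in old. Over all members this level had a median of 37.2% in young, 36.7% in control and 21.6% in old.

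The cytokinesis genes rose and fell with the rest. Prc1, which bundles the central spindle, held 0.474, 0.321 and 0.415 UMIs per 10000 in Mpo-high, 1.06, 0.9825 and 1.13 in Mpo-low and 0.275, 0.275 and 0.1565 at Retnlg+Mmp8 of 50 or more. Racgap1, also of the central spindle, held 0.339, 0.2235 and 0.324, then 0.642, 0.580 and 0.762, then 0.2455, 0.251 and 0.135. Anln (chr9:22332012-22389188), the scaffold protein anillin of the cleavage furrow, was flatter, with 0.183, 0.1065 and 0.117 in Mpo-high, 0.218, 0.179 and 0.153 in Mpo-low and 0.133, 0.102 and 0.0462 at 50 or more. It kept 51.1%, 47.45% and 33.5% of its highest band in cells with Retnlg+Mmp8 of 20 or more.

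Since the members moved together along maturation, their promoters were searched for the letters of the cell cycle genes homology region (CHR), in its form TTTGAA or in the less common form TTCGAA, and for the CCAAT box, the elements known to bind the DREAM and B-Myb complexes and NF-Y at G2/M genes. Promoters are the RefSeq windows of 250 bases before and 50 after a start on GRCm38.p6, read on both strands, and 36 of the 44 members have one. A CHR was found for 28 of these 36 (77.8%), against 21.7% of all 27025 genes with a promoter, CCAAT for 28 (77.8% against 41.1%) and both for 24 (66.7% against 8.61%). Of the S phase genes 5 of 30 (16.7%) held a CHR and 19 (63.3%) CCAAT, and of the other G2/M genes 30 of 39 (76.9%) and 27 (69.2%). A match is a description of letters, not of a bound site. The 120 bases before the start are shown for 3 abundant members with a CHR there (Cdk1, Top2a and Cdc20). They are also shown for 2 without one there (Ccnb2 and Cks2, the latter highest in Mpo-high cells). These 5 are a choice among abundant members whose windows lie mostly outside the annotated gene. Birc5 and Nusap1, also abundant and with such windows, are not shown: neither has a CHR or CCAAT in its whole window. Capitals mark either form of the CHR and the CCAAT box or their reverse complements, and each is written 5′ to 3′ on the strand of its gene.
Cdk1, chr10:69352913-69353032, minus strand: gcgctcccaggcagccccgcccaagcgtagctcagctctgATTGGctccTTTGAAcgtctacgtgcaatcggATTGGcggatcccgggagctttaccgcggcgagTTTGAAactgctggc
Top2a, chr11:99024190-99024309, minus strand: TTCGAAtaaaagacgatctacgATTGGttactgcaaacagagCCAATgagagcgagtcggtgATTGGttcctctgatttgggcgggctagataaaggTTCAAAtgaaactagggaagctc
Cdc20, chr4:118437344-118437463, minus strand: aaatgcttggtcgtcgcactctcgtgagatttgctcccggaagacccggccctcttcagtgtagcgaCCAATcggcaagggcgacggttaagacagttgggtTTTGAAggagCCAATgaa
Ccnb2, chr9:70421555-70421674, minus strand: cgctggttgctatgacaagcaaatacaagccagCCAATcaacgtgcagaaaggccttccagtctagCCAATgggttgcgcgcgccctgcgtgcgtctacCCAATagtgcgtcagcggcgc
Cks2, chr13:51645112-51645231, plus strand: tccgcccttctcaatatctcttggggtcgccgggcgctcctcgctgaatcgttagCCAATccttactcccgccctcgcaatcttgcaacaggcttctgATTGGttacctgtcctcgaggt

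Cdk1 has a CHR 15 bases before its start and Cdc20 one 18 bases before it, each with a CCAAT box further upstream. Cdk1 has another CHR 71 bases before its start, and Cdc20 another CCAAT box 8 bases before it, downstream of its CHR. Ccnb2 and Cks2 show only CCAAT in these bases. Ccnb2 has TTTGAA outside them, 167 bases before and 4 after its start, and Cks2 has none in its whole window. Cdc25b, which did not fall with the others, has TTCGAA 7 bases after its start and CCAAT 28 bases before it. It has no TTTGAA, the form found for 26 of the 36 members. Bub1, which fell, likewise has TTCGAA and CCAAT without TTTGAA. Whether these letters have a part in the course of Cdc25b was not tested. Cks1b, highest in Mpo-high cells, has TTTGAA 77 and 17 bases before its start.

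Between libraries the members differed little over all analysed cells. Summed, they stood at 43.75 UMIs per 10000 in young, 41.5 in control and 41.5 in old. The log2 ratio of these sums was -0.08 (-0.08 to -0.07) for old over young and 0.0015 (-0.0045 to 0.0075) for old over control. For control over young it was -0.08 (-0.08 to -0.07). The UMI limits removed unequal numbers of cells. Other blood cells aside, 133 young, 351 control and 915 old cells lay above them, and 78.2%, 67.5% and 77.5% had 8 or more members. Below them, among cells deep enough to be thinned, lay 387, 426 and 105, with 15.5%, 28.2% and 31.4%. Without these limits the ratio of the sums became -0.004 for old over young and 0.067 for old over control. For control over young it became -0.071. The 3 comparisons share libraries, so they are given side by side and not as support for each other. Of the genes that reached 10 CPM in one of the libraries compared, 1 of 43 members was at least 1.5 times higher in old than in young, where 5.06% of all 5596 genes were, and 1 of 43 at least 1.5 times lower, against 10.7%. For old over control the counts were 1 of 43 higher, against 5.35% of 5457 genes, and 0 lower, against 9.55%. For control over young they were 0 of 41 in either direction, against 2.80% higher and 3.84% lower of 5571 genes. The median log2 ratio of the members was -0.02, 0.06 and -0.08, and that of all genes -0.09, -0.09 and -0.0025. These counts go by size alone. For old over control with the wider bands weighted equally, 5 of 43 members were at least 1.5 times higher, against 287 of 5457 genes, and the median was 0.23 against -0.03 for all genes.

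**Figure D5:**
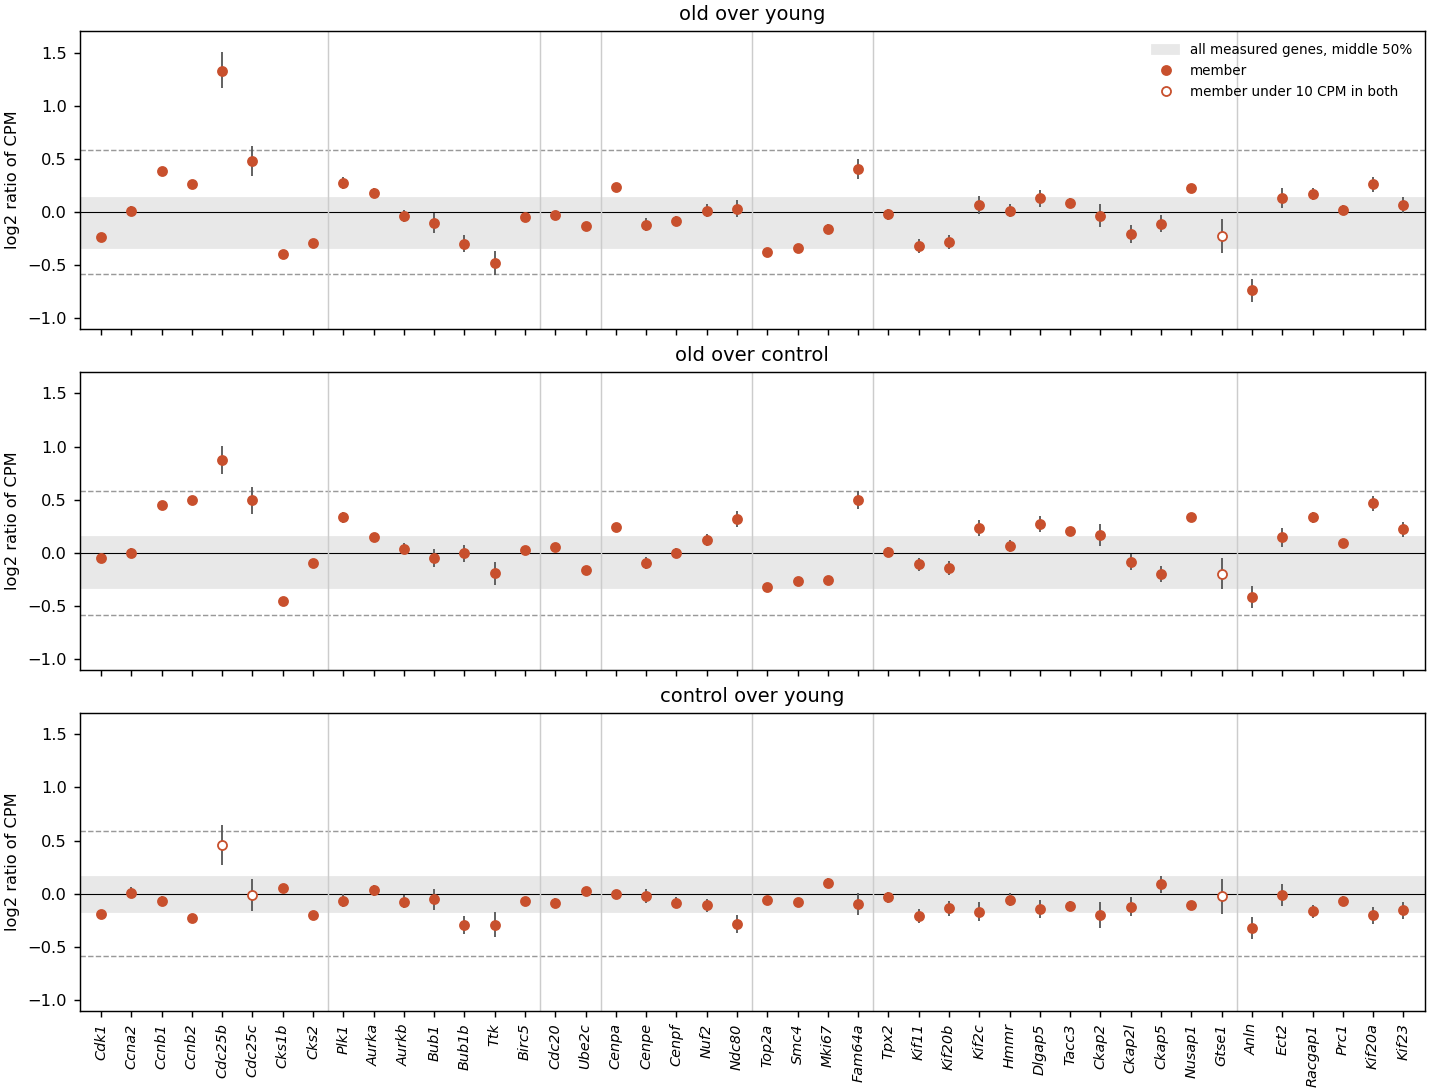
Log2 ratio of CPM (y axis) for each of the 44 members (x axis, ordered by role) in the 3 comparisons of libraries, with exact 95% conditional binomial intervals, a grey band for the middle 50% of all measured genes, dashed lines at 1.5 times and open circles for members under 10 CPM in both libraries. Cdc25b lies above the upper line for old over young (1.33) and old over control (0.87), Anln below the lower line for old over young (-0.73), and all others lie between the lines.

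The member past the limit upward was Cdc25b, with 0.0524 (0.0471 to 0.0581), 0.0720 (0.0668 to 0.0775) and 0.132 UMIs per 10000 (0.125 to 0.1385) in young, control and old. Its log2 ratio was 1.33 (1.16 to 1.501) for old over young and 0.87 (0.74 to 1.003) for old over control. With the bands first laid out weighted equally the latter was 0.47, short of the limit. Among cells with Mpo and Retnlg+Mmp8 both below 10 these ratios were 1.11 and 0.65. With the other blood cells kept in, old over young was 0.74, and control over young turned from 0.46 to -0.09, and the set-aside cells of young were the most numerous. The member past the limit downward was Anln, with 0.204 (0.193 to 0.215), 0.163 (0.155 to 0.171) and 0.1225 (0.116 to 0.129), a log2 ratio of -0.73 (-0.84 to -0.63) for old over young and -0.41 for old over control. Counted per cell and not scaled to depth, the former was -0.46, short of the limit.

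By role, the differences ran in both directions. For old over young, 5 of 8 genes of mitotic entry and 5 of 6 of cytokinesis were higher, and 3 of 4 of chromosome structure lower, where Top2a stood at -0.38, Smc4 at -0.34 and Mki67 at -0.16 while Fam64a stood at 0.40. Ccnb1 and Ccnb2 were higher in old, by a log2 ratio of 0.38 and 0.26 over young and 0.45 and 0.49 over control, whereas Cks1b was lower, at -0.40 and -0.45. For control over young, 35 of 41 members were lower and 6 higher, with a range from -0.32 to 0.10. Of all 5571 genes, 2816 were lower and 2755 higher in that comparison. For old over young, 2190 of all 5596 genes were higher and 3406 lower. Apart from Cdc25b, counted among the genes of mitotic entry, and Anln, counted among those of cytokinesis, none of the member differences in this paragraph reached 1.5 times.

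Band by band, each pair of libraries differed, including the pair of 3 months. The counts of members given for single bands have no count over all genes of the band beside them. A shift shared by most genes of a band was therefore not tested. At Retnlg+Mmp8 of 10 to 20 the summed members of old stood above control by a log2 ratio of 0.89 (0.82 to 0.95), with 43 of 44 members higher, and above young by 0.14 (0.10 to 0.17), with 32 of 44 higher, while control stood below young by -0.75 (-0.82 to -0.68), with 3 of 44 higher. In that band it was control that lay apart from the other libraries. Control also had the lower floor of Retnlg+Mmp8, a median of 1.28 against 3.27 and 3.74 in cells with Mpo of 20 or more. The band therefore need not hold the same stage in each library. At 50 to 100 the old sum stood below young by -1.21 (-1.28 to -1.13), with 1 of the 43 members found in both libraries higher, and below control by -1.15 (-1.24 to -1.06), with 2 of 44 higher, while control over young was at -0.05 (-0.15 to 0.04). In the earlier bands the ratio for old over young lay between -0.04 in Mpo-high cells and 0.07 at Retnlg+Mmp8 of 5 to 10. For old over control it was 0.24 in Mpo-high cells, with 41 of 44 members higher, 0.24 at Mpo of 20 to 50, with 37 higher, 0.08 at Mpo of 10 to 20, with 29 higher, 0.11 in Mpo-low cells, with 33 higher, and 0.45 at Retnlg+Mmp8 of 5 to 10, with 42 higher. Control over young, which shares both libraries with these, was at -0.28, -0.25, -0.02, -0.10 and -0.38 in the same bands. The bands of 10 to 20 and 50 to 100 held 1093 old, 308 young and 183 control cells at 10 to 20 and 317, 121 and 81 at 50 to 100. Their median depth was 10741.0, 5964.5 and 5572.0 and 8608.0, 5549.0 and 5007.0 UMIs. The promyelocyte genes summed to 29.65 UMIs per 10000 in old, 69.3 in young and 43.8 in control at 10 to 20. At 50 to 100 they summed to 28.6 in old, 76.5 in young and 79.15 in control. How far depth, free RNA or earlier cells in these droplets enter the difference was not tested, and an effect of age cannot be told apart from one of the single libraries.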

How the data were processed

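For each of the 3 libraries the authors deposited raw UMI counts of every gene in every cell, made with STAR, Cell Ranger 2.1.0 and mm10, which the submitters' processing notes name. The annotation release and the strand setting are not given in the sources used here. From these counts, cells with at least 200 genes, at most 20% mitochondrial UMIs and a UMI total between the 5th and 95th percentiles over all libraries (3647.4 to 19252.6) were kept. A cell was set aside when 3 or more markers from 1 list of another cell type had a UMI and together reached 10 UMIs per 10000. The 11 lists cover blood cells and also endothelial and mesenchymal cells. No doublet caller was run.

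Cells were placed in bands by Mpo and by Retnlg+Mmp8, bands of fewer than 50 cells were left out of the values, and each cell was thinned once to 3000 UMIs for shares of cells, which left out 0 cells. Levels have exact Poisson, shares Clopper-Pearson and ratios conditional binomial intervals at 95%. Levels are 3′ UMI counts per 10000 UMIs. Genes under 10 CPM in both groups compared were not counted against the limit of 1.5 times. All members may be named, with levels for the 2 most abundant of each role, the 3 that kept most and the 3 that kept least of their highest band, and those past the limit between libraries. Cdk1, Ccnb1, Ccnb2, Cdc25c, Mki67 and Fam64a were added after their values were seen. Plk1, Aurkb and Bub1, for which values are also given, stand outside this rule as well. The members and lists were chosen with earlier results of these data known. The work used scipy 1.17.1 and numpy 2.4.6 for counts and intervals, with pandas 2.3.3 for tables and matplotlib 3.10.9 for plots under Python 3.11.15, and the scripts were tested on simulated data. Gene positions are from GENCODE on GRCm38.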

Additional observations from a re-analysis of the deposited data

Results flagged for a closer look

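Cdc25b moved in opposite directions between libraries along the same step. Its log2 ratio of cells with Retnlg+Mmp8 of 50 or more over Mpo-low cells was -0.45 in young, 0.21 in control and 0.82 in old. The difference between these values was not tested, the intervals of young and control include 0, and the young and control values rest on 11 and 14 UMIs in the late cells.

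Cells that the comparisons did not use, those with markers of other cell types, also carried the members. After thinning, 8 or more members were found in 45.5% of the 794 cells in young (45.47%, 41.96 to 49.0), 52.25% of the 111 in control (42.56 to 61.8) and 23.5% of the 85 in old (23.53%, 15.0 to 33.97). The types differed in number between libraries, and in young the share was 72.1% of 129 cells with B progenitor markers and 38.3% of 441 with monocyte markers.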

How the results depend on the processing

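No paired analysis was possible because each group is 1 library, and for the same reason no library could be left out within a group. Over the results that answer a comparison and their alternatives, 60 values stayed within the counting interval or within 1.5 times of the count and 69 moved. Among the latter, the summed members, which were past no limit, changed sign for old over young and for old over control as given in the last paragraph. Depth limits single cells, since 1 UMI of 3000 is worth 3.33 per 10000.

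The share of cells with 3 or more members moved, in the order young, control and old, to 95.44%, 95.97% and 93.12% when thinned to 5000 UMIs (700, 942 and 309 cells left out), 92.79%, 94.17% and 91.39% with 2 or more members, 71.0%, 72.22% and 67.43% with 5 or more, 51.89%, 51.38% and 49.69% with 8 or more, and 81.84%, 83.11% and 79.66% without Ckap5, Smc4, Cks1b and Cdc25b. UMI percentiles taken per library gave 84.5% in young and 84.23% in old, no UMI limits 84.68% and 84.19%, and keeping other blood cells 84.55% in young.

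At Retnlg+Mmp8 of 20 to 50 the share left, as percent of the highest band first laid out, was 58.67%, 55.14% and 53.41%. It became 83.33%, 84.29% and 77.91% at 5000 UMIs, 33.71%, 29.84% and 24.02% with 5 or more members and 31.1%, 19.65% and 17.49% with 8 or more, and with 2 or more 74.68% in control and 72.61% in old. With 8 or more members and the wider bands it was 29.72%, 20.82% and 19.71%, and in cells under the median UMI count 17.54%, 7.916% and 13.92%. With 3 or more members no band went under 50% in young with a second random draw, percentiles per library or no UMI limits, nor in control with a second draw or bands from thinned counts, nor in any library at 5000 UMIs or with 2 or more members. The summed level left there, 50.36%, 42.16% and 32.42%, became 48.39% in young and 35.33% in old with the wider bands, and in old 36.71% with percentiles per library and 34.87% with no UMI limits.

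For old over young the log2 ratio of the summed members became 0.1949 per cell unscaled, -0.003917 with no UMI limits, 0.002267 with percentiles per library, -0.1175 with other blood cells kept, 0.01904 in cells with Mpo and Retnlg+Mmp8 below 10, and -0.087 with the wider bands weighted equally. The members past the limit numbered 4 unscaled, 0 at a minimum of 50 CPM and 1 at a limit of 2 times, against 2. For old over control the ratio became 0.2796 unscaled, 0.08626 with the first bands and 0.129 with the wider bands weighted equally, 0.06724 with no UMI limits, 0.05721 with percentiles per library, -0.007311 with other blood cells kept and 0.1067 in the low cells, and the members past the limit numbered 10 unscaled, 0 at 50 CPM, 0 at 2 times, 2 with no UMI limits, 2 in the low cells and 5 with the wider bands (5 higher of 43, against 287 of 5457 genes), against 1. For control over young the ratio became -0.1253 and -0.216 with the first and wider bands weighted equally, -0.08474 unscaled, -0.05494 with percentiles per library, -0.1102 with other blood cells kept and -0.08762 in the low cells. The sign of the small summed differences for old over young and old over control thus depended on the scaling and the cells kept. Except with the wider bands, the changed counts of members past the limit have no count over all genes beside them. The unscaled counts also hold the difference in depth, a median of 10286.0 (young), 9773.0 (control) and 12605.0 UMIs (old) per analysed cell. They are therefore not read as results about the members. The alternatives with 8 members, wider bands, low cells or shallower cells were chosen after seeing the data, and the cause of each shift was not tested.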
